A study of Mus musculus with 8 samples.

Results

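The collagen genes of the mouse were followed in thyroid follicular cell organoids (TFCOs), thyroid tissue and lung tissue. Members were all genes of the table whose symbol is COL, a number, A and a number with nothing after it, which gave 43 of 16119 genes, and all 43 passed the filter on low values. They comprised 11 fibrillar genes, 6 basement membrane genes of type IV, 5 beaded filament genes of type VI, 9 fibril-associated genes, 3 short-chain network genes, 1 anchoring fibril gene, 4 transmembrane genes, 2 multiplexins and 2 others. Of the type VI and fibril-associated genes, Col6a4 and Col21a1 were not analysed here. The table writes symbols in capitals, and they are given here as mouse symbols. All 8 libraries came from wild type C57BL/6 mice with no treatment, and the organoids were derived from females. Libraries were made from 2 TFCO lines, mThy14 and mThy16, each once at early and once at late passage, and from thyroid tissue 1 and 2 and lung tissue 1 and 2, lung being an unrelated control tissue. Each line is treated by the study as 1 donor and was grown from thyroid cells in a drop of basement membrane extract, a gel of matrix proteins that surrounds the cells. The medium held R-spondin 3, forskolin, EGF, FGF10 and A83-01, an inhibitor of TGFβ receptor signaling. No age of the animals is given in the sources used here.

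Collagens are matrix proteins whose chains wind into a triple helix in the endoplasmic reticulum before they are secreted, trimmed and cross-linked. Fibrillar collagens form the fibers of connective tissue and are made chiefly by fibroblasts, whereas type IV collagens form the sheet-like network of basement membranes, which both epithelial and stromal cells build. In the thyroid, each follicle of epithelial cells is enclosed by a basement membrane, with fibroblasts, capillaries and nerves in the space between follicles.

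The 6 type IV genes lie as neighbouring pairs in the mouse genome. Positions are those of GENCODE M21 on GRCm38, in which all 43 members were found, on 15 chromosomes. Col4a1 (chr8:11198423-11312826, minus strand) and Col4a2 (chr8:11312805-11449287, plus strand) point away from each other and overlap by 22 bases at their 5′ ends. Col4a4 (chr1:82448423-82586849, minus strand) and Col4a3 (chr1:82586921-82722059, plus strand) are separated by 71 bases. Col4a6 (chrX:141165403-141474076, minus strand) and Col4a5 (chrX:141475385-141689234, plus strand) are separated by 1308 bases. Col3a1 (chr1:45311538-45349706, plus strand) and Col5a2 (chr1:45374321-45503282, minus strand) are neighbours that point toward each other, 24614 bases apart. Reads in the 22 shared bases cannot be assigned to Col4a1 or Col4a2 without strand.

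Stretches before the start of a selection of members are shown from RefSeq (GRCm38.p6), which had 37 windows for 34 members. The selection did not follow the size of the differences. Col1a2, for example, differed more from thyroid tissue than Col6a2 and Col6a3 and is not shown. Each run reads 5′ to 3′ on the strand named and stops before the first annotated exon, except the last, which is the overlap of Col4a1 and Col4a2 and lies within both genes. Capitals mark matches to any of 3 motifs. The GC box was searched as GGGCGG. The TATA element was searched with the letters TATAAA. The remaining motif was CCAAT. Each was searched on both strands, and no matches overlapped. The first set holds 3 genes that were lower in TFCOs than in thyroid tissue.
Col3a1, chr1:45311288-45311537, plus strand: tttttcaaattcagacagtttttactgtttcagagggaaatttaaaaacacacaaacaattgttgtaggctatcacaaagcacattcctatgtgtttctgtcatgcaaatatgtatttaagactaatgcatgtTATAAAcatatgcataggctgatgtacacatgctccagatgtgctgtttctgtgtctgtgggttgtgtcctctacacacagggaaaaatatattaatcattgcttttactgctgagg
Col6a2, chr10:76623631-76623880, minus strand: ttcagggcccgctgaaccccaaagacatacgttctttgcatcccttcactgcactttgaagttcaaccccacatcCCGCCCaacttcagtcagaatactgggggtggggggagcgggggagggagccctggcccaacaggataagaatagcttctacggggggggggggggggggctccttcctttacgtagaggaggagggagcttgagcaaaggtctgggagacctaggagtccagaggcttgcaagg
Col6a3, chr1:90843972-90844221, minus strand: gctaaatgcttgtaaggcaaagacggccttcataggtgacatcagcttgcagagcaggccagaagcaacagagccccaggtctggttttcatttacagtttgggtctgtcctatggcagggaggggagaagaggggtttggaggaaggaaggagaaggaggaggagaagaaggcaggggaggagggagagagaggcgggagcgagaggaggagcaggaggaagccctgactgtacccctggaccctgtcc
The second set holds the type IV pairs, for which only the bases between the genes or shared by both genes are shown where the pair lies close together.
Col4a5, chrX:141475169-141475384, plus strand: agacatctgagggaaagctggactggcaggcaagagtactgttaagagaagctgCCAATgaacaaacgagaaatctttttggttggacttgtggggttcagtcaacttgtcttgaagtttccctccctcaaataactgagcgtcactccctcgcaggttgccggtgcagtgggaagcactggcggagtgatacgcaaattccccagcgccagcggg
Col4a6, chrX:141474077-141474326, minus strand: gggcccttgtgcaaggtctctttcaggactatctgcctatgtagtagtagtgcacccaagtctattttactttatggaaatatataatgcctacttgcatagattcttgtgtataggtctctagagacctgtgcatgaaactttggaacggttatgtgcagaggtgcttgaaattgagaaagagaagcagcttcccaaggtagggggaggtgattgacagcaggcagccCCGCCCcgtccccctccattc
Col4a4 side of the Col4a3 and Col4a4 interval, chr1:82586850-82586920, minus strand: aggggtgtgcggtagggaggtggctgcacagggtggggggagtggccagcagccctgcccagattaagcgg
Col4a2 side of the Col4a1 and Col4a2 overlap, chr8:11312805-11312826, plus strand: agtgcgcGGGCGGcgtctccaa
The TATA element of Col3a1 began 117 bases before the RefSeq start, from which the distances are counted, and the GC box of Col6a2 began 175 bases before it. The GC box of Col4a6 began 21 bases before the start, and the CCAAT motif of Col4a5 began 196 bases before it, its run being cut short at an annotated exon that begins upstream of that start. The 22 bases shared by Col4a1 and Col4a2 hold a GC box, and the runs of Col6a3 and of Col4a3 and Col4a4 hold none of the 3 motifs. In 250 bases before the start, a GC box was found in 21 of the 37 collagen windows (56.8%) and in 32.7% of all 32851 windows. The CCAAT motif was found in 12 collagen windows (32.4%) and in 33.8% of all windows, and a TATA element in 5 (13.5%) and in 12.4%. A match is a run of letters in a window, and binding at these letters was not measured.

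The libraries held 9755081 to 16904865 reads on genes, of which 11142 to 140583 were on collagen genes. Values are normalized counts, the reads of a gene divided by one factor per library. The thyroid label was checked with follicular cell markers. The thyroid transcription factor gene Pax8 was at 3925 to 8273 in TFCOs, 8300 and 5714 in thyroid tissue, and at 0 in lung tissue. On the log2 scale, all 7 follicular markers were higher in TFCOs than in lung tissue. Relative to thyroid tissue, 5 of the 7 were lower in TFCOs and 2 were higher. Dio1 was at 15.7 to 415 in TFCOs and at 2471 and 5990 in thyroid tissue. Tshr was at 1882 to 8582 in TFCOs and at 1287 and 1087 in thyroid tissue. The libraries fell into 2 sets that cross the groups, since 60 genes were at 0 throughout one set while reaching 50 or more throughout the other, against 4 for the next best split. One set holds the 4 TFCO libraries and thyroid tissue 1, the other holds thyroid tissue 2 and both lung tissues. What the sets stand for is not given in the sources used here. For this reason, calls between TFCOs and thyroid tissue are also given against thyroid tissue 1 alone. For TFCOs against lung tissue, which lie in different sets, the set cannot be told apart from the tissue without the step through the thyroid tissues.

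Collagen RNA was a smaller share of all RNA in TFCOs than in either tissue. Collagen genes took 0.103% to 0.144% of normalized counts in the 4 TFCO libraries, 0.371% and 0.431% in thyroid tissue, and 0.403% and 0.832% in lung tissue. With the thyroglobulin gene Tg left out of the totals, the shares of thyroid tissue were 0.422% and 0.521% and those of TFCOs 0.103% to 0.145%. TFCOs were below all 4 tissues, and thyroid and lung tissue overlapped. In these bulk samples, fewer cells of a type and less RNA per cell cannot be told apart.

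**Figure D1:**
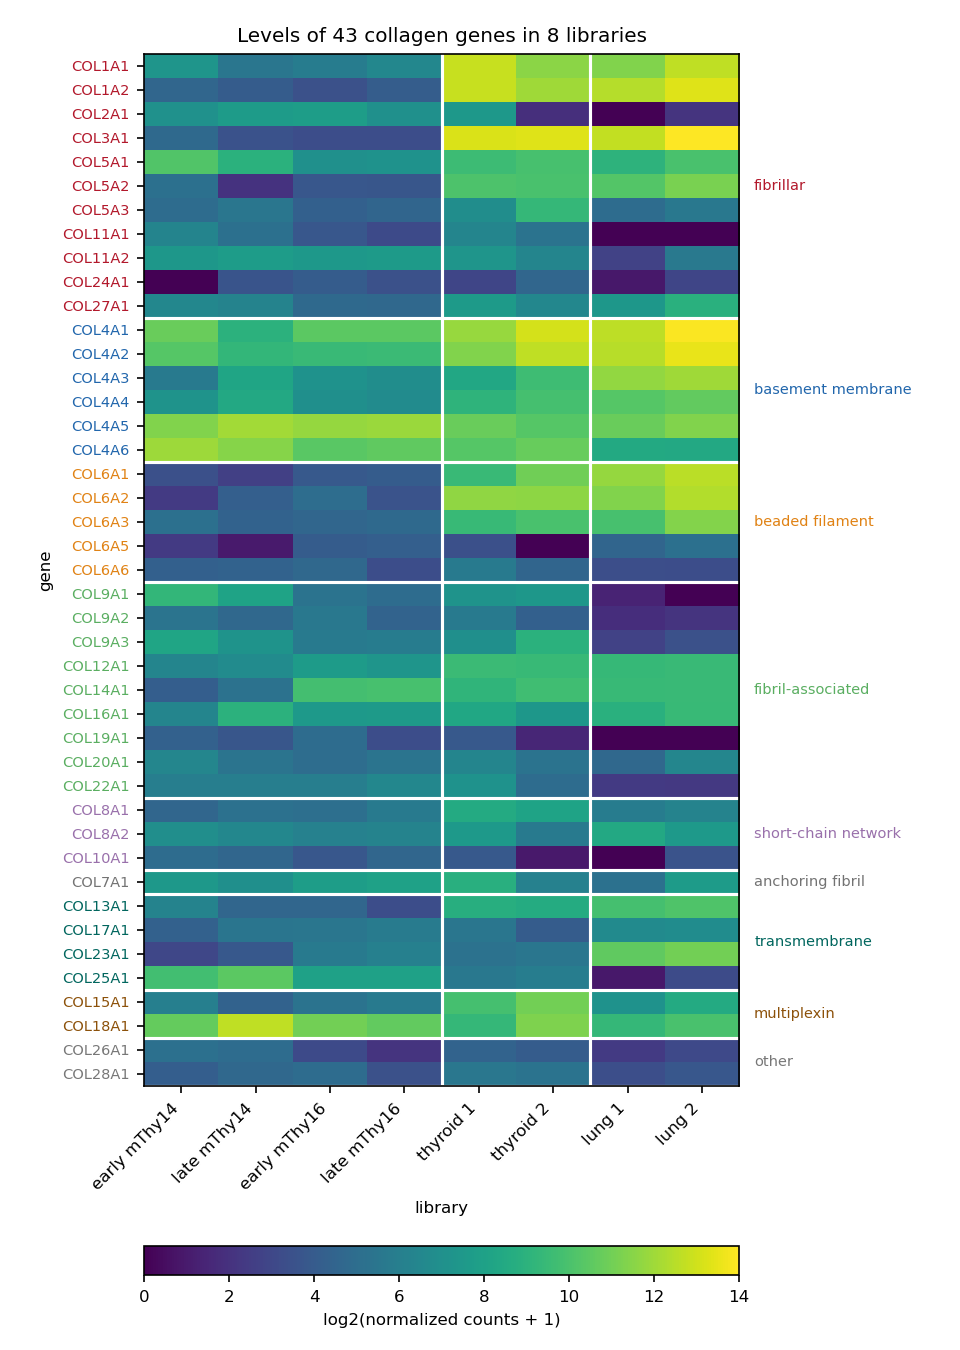
Levels of the 43 collagen genes, as log2(normalized counts + 1), in the 8 libraries, with genes grouped by class and white lines between classes and between TFCOs, thyroid and lung tissue. The fibrillar genes Col1a1, Col1a2 and Col3a1 are dark in all 4 TFCO columns and bright in all 4 tissue columns. The type VI genes Col6a1, Col6a2 and Col6a3 show the same. Col4a5, Col4a6 and Col18a1 are bright in the TFCO columns but are also at 345 normalized counts or more in every tissue column.

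The make-up of the collagen RNA also differed. Fibrillar genes took 5.29% to 11.8% of collagen counts in TFCOs, 37.3% to 56.8% in thyroid tissue and 34.5% to 39.0% in lung tissue. Basement membrane genes took 45.2% to 61.6% in TFCOs, 21.6% to 36.4% in thyroid tissue and 38.3% to 38.9% in lung tissue. In summed normalized counts, the fibrillar genes reached 1106 ± 590 (SD, n = 4 libraries) in TFCOs and 23544 ± 4492 (SD, n = 2) in thyroid tissue, a ratio of the means of 21.3. Beaded filament genes reached 81.4 ± 20.2 and 5490 ± 1124 in the same order, a ratio of 67.5. The ratio for basement membrane genes was 1.78. Multiplexins summed to 1659 to 2092 in 3 TFCO libraries and 6534 in late mThy14, and to 1571 and 4637 in thyroid tissue. These shares are of counts and are not corrected for gene length.

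**Figure D2:**
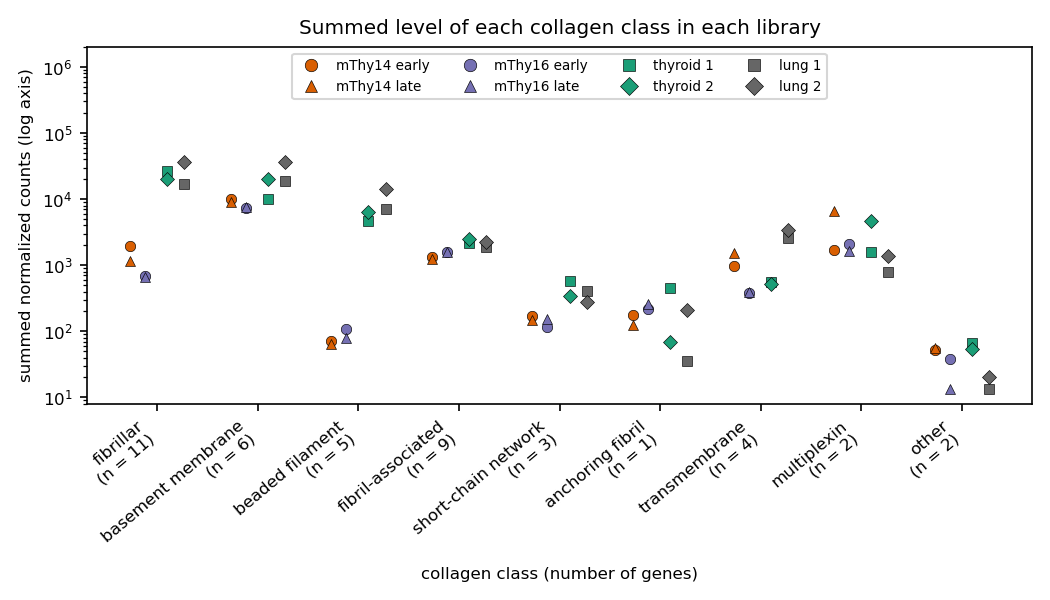
Summed normalized counts (log axis) of each collagen class in each library, with lines mThy14 and mThy16, thyroid and lung tissue in separate colors and circles for early, triangles for late passage. TFCOs lie between 658 and 1927 for fibrillar genes, below all 4 tissues at 16740 to 36949, and between 63.5 and 110 for beaded filament genes, below the tissues at 4695 to 14094.

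Of the 43 collagen genes, 11 were lower and 0 were higher in TFCOs than in thyroid tissue by limma at an adjusted p under 0.05. Over all 14703 genes tested, 3.65% were called, 3.05% lower and 0.599% higher. Without adjustment, 18 of the 43 collagen genes had a limma p under 0.05, beside 2741 of all 14703 genes. The median difference of the members was -1.10 on the log2 scale, against 0.05 for all genes, and 30 of the 43 lay below 0. The groups did not overlap for 17 members that were lower in TFCOs, against 17.3% of all genes, and for 20 members in either direction, against 34.5%. Against thyroid tissue 1 alone, 6 of the 11 calls remained, namely Col1a1, Col1a2, Col3a1, Col5a2, Col6a1 and Col6a2. These 6 also passed in each of the 19 alternative settings tried for this comparison. With the library set as a term, the fit that gives the difference from thyroid tissue 1, 178 of all 14703 genes were called.

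**Figure D3:**
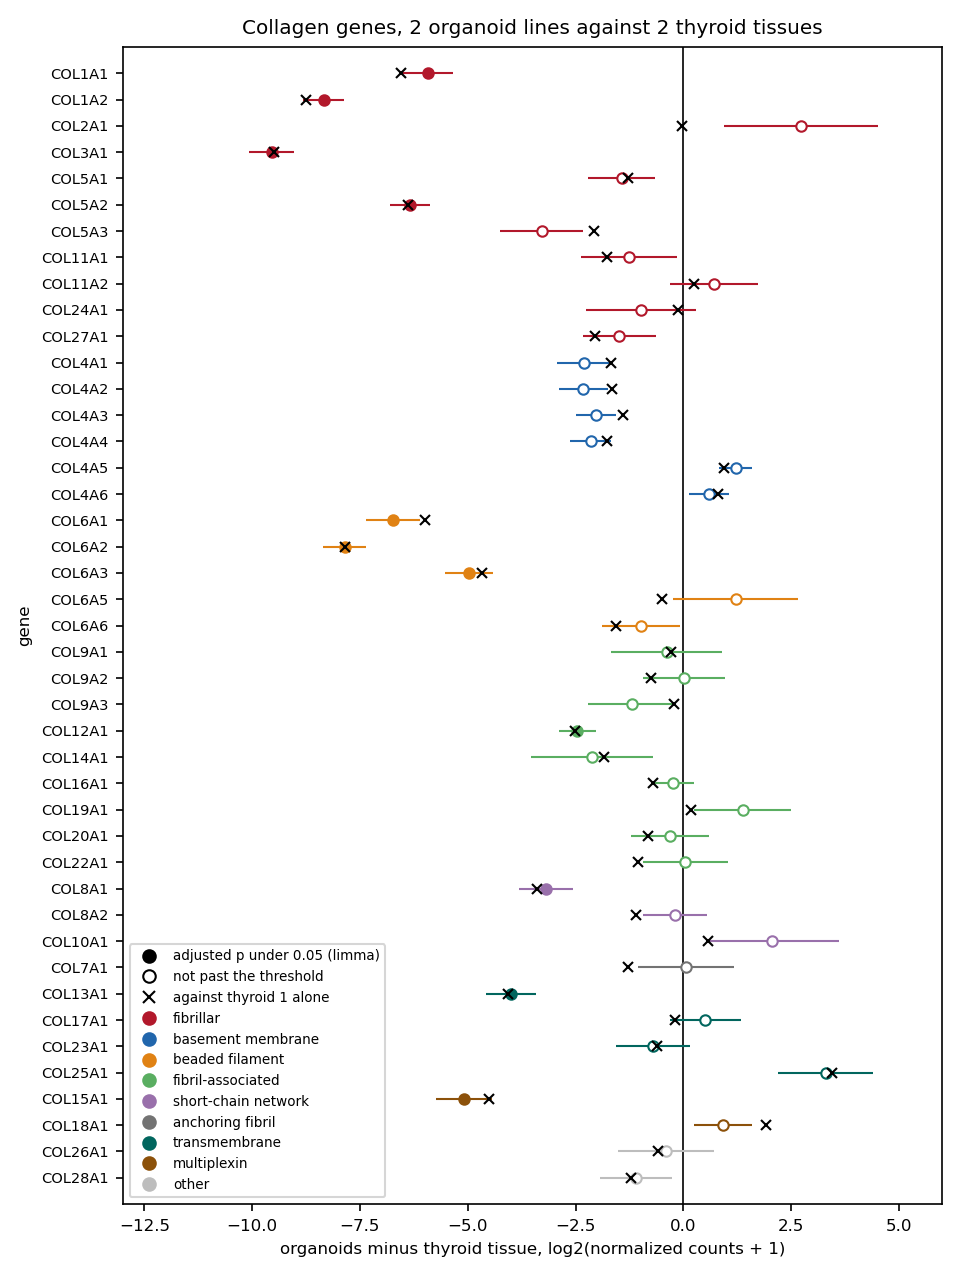
Difference between TFCOs and thyroid tissue for each collagen gene on the log2(normalized counts + 1) scale, as the mean of 2 lines minus the mean of 2 tissues with its standard error, colored by class. Filled points passed the limma threshold, open points did not, and crosses give the difference from thyroid tissue 1 alone. All 11 filled points lie left of 0, from -2.46 for Col12a1 to -9.55 for Col3a1, and Col2a1 moves from 2.73 to -0.03 when thyroid tissue 2 is left out.

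Among the fibrillar genes, 4 of 11 were lower in TFCOs than in thyroid tissue, and the median difference was -1.48. The 4 were the genes of the main interstitial fibers. Col3a1, whose chain forms type III collagen, was at 26.7 and 8.91 in early mThy14 and mThy16, at 10.4 and 8.94 in late mThy14 and mThy16, at 9519 and 10404 in thyroid tissue, and at 6659 and 16426 in lung tissue. Every TFCO library was therefore far below every tissue, on 8 to 19 reads. It fell by 9.55 ± 0.51 (SE) on the log2 scale (adjusted p = 0.000976 with limma), and the difference from thyroid tissue 1 alone was -9.48 (adjusted p = 0.028).

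Both chains of type I collagen, the main protein of connective tissue fibers, were low in TFCOs. Col1a1 was at 155 and 57.4 in early and 44.8 and 88.3 in late mThy14 and mThy16, at 7318 and 3048 in thyroid tissue and at 2656 and 6495 in lung tissue. Col1a2 was at 23.9 and 9.9 in early and 15.6 and 16.8 in late TFCOs, at 7299 and 4060.3 in thyroid tissue and at 5474 and 10140.1 in lung tissue. No TFCO library overlapped with a tissue for either gene. Col1a1 fell by 5.92 ± 0.57 (adjusted p = 0.00514, limma) and Col1a2 fell by 8.34 ± 0.47 (adjusted p = 0.000976) relative to thyroid tissue. Against thyroid tissue 1 alone the differences were -6.55 and -8.76. The counts of the chains therefore stood in another proportion, with Col1a1 to Col1a2 ratios of 2.87 to 6.47 in TFCOs, 1.00 and 0.751 in thyroid tissue and 0.485 and 0.640 in lung tissue. The TFCO ratios rest on 43 to 110 reads of Col1a1 and 10 to 17 of Col1a2. The exact 95% binomial interval of the lowest was 1.56 to 5.56, which covers counting error only.

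Type V collagen, which sits inside fibers and sets their width, was split by chain. Col5a2 was at 35.1 and 12.9 in early and 3.12 and 12.3 in late TFCOs, at 1072 and 1014 in thyroid tissue and at 1225 and 2303 in lung tissue. It fell by 6.34 ± 0.46 (adjusted p = 0.00177, limma), with no overlap. Col5a1 did not pass. It was at 1185 and 132 in early and 484 and 139 in late mThy14 and mThy16, at 781 and 958 in thyroid tissue and at 523 and 1003 in lung tissue, so that early mThy14 was above all 4 tissues, late mThy14 was just below them and both mThy16 libraries were lower still. The Col5a1 to Col5a2 ratio was 10.2 to 155 in TFCOs, 0.728 and 0.945 in thyroid tissue and 0.427 and 0.435 in lung tissue. The TFCO ratios rest on 3 to 25 reads of Col5a2. The ratio of 155, in late mThy14, rests on 3 reads of Col5a2, with an exact 95% binomial interval of 52.7 to 754. The lowest TFCO ratio had an exact 95% binomial interval of 5.78 to 19.7, above all 4 tissues. Col5a3 was at 29.5 and 18.8 in early and 44.8 and 22.4 in late TFCOs, at 118 and 645 in thyroid tissue and at 30.2 and 47.2 in lung tissue. It was below both thyroid tissues, with a difference of -3.29 ± 0.96 (adjusted p = 0.129) that was -2.06 against thyroid tissue 1 alone. Late mThy14 lay between the lung tissues and the other TFCO libraries below them.

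The remaining fibrillar genes, known mostly from cartilage or as minor chains, did not pass against thyroid tissue. Col2a1, the main fibrillar collagen of cartilage, was at 136 and 223 in early and 208 and 129.7 in late TFCOs, at 173 and 2.77 in thyroid tissue and at 0 and 3.37 in lung tissue. It followed the library sets: the 5 libraries of one set were at 129.7 or more, and the 3 of the other at 3.37 or less. Col11a2, a chain of type XI collagen, was at 170.1 and 176 in early and 211 and 198 in late TFCOs, at 158 and 83.0 in thyroid tissue and at 5.86 and 49.9 in lung tissue. Col11a1, its partner, was at 77.3 and 12.9 in early and 34.3 and 7.83 in late TFCOs, at 81.6 and 39.6 in thyroid tissue and listed at 0 in both lung tissues. Col27a1 was at 88.5 and 26.7 in early and 74.9 and 25.7 in late TFCOs, at 195 and 88.5 in thyroid tissue and at 167 and 475 in lung tissue. Each of these overlapped between TFCOs and thyroid tissue except Col11a2, whose TFCO libraries were all higher (difference 0.71 ± 1.02, adjusted p = 0.706). Col24a1 stayed at 24.0 or less in all 8 libraries.

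The library sets separated other members too. The sets did not overlap for 12 of the 43 genes, a smaller share than the 43.6% of all genes tested. Apart from Col2a1 and Col11a2, those higher in the set with TFCOs were Col9a2, Col10a1, Col19a1 and Col22a1. Those lower in the set with TFCOs were Col4a1, Col4a2, Col4a3, Col4a4, Col6a1 and Col6a3. Between thyroid tissue 1 and 2, Col2a1 differed by 5.53 on the log2 scale, Col10a1 by 2.98, Col19a1 by 2.41 and Col22a1 by 2.18. More than 1 on the log2 scale separated the 2 thyroid tissues for 23 of 43 members (53.5%) and for 45.6% of all genes. The summed level of 7 cartilage markers was 226 to 951 in TFCOs, 245 and 307 in thyroid tissue and 263 to 532 in lung tissue. The 7 did not share a pattern. Acan, Matn1 and Comp were higher in every library of the set with TFCOs than in the other set, and Acan was at 54.4 in thyroid tissue 1 and 0.922 in thyroid tissue 2. Chad was highest in lung tissue, at 506 and 233, and Hapln1 was lower in every TFCO library than in every tissue. Cnmd was at 145 to 852 in TFCOs, 84.9 and 150.3 in thyroid tissue and at most 2.02 in lung tissue, and Matn3 overlapped between the sets. The part of these markers in the levels of Col2a1 was not tested.

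Markers of fibroblasts were low in TFCOs, as were 4 of the 11 fibrillar genes, Col1a1, Col1a2, Col3a1 and Col5a2. Their summed level over 7 genes was 74.9 to 121 in TFCOs, 7551 and 11069 in thyroid tissue and 10715 and 13140 in lung tissue, and all 7 fell relative to thyroid tissue. The defining marker Lum was at 0 in all 4 TFCO libraries, and Dcn was at 0 to 29.5 against 4228 and 5855 in thyroid tissue. Endothelial markers summed to 233 to 530 in TFCOs, 3558 and 9177 in thyroid tissue and 23799 and 45288 in lung tissue, with 4 of 7 lower. Mural cell markers, those of pericytes and smooth muscle, summed to 1692 to 2632 in TFCOs, 5511 and 6950 in thyroid tissue and 2711 and 7765 in lung tissue, with 2 of 7 lower. These markers did not share a level. Myh11 was the highest in TFCOs, at 1069 to 1668 against 1206 and 668 in thyroid tissue. It was the 1 marker above thyroid tissue on the log2 scale, and 6 lay below. Rgs5 was at 1.12 to 21.8 in TFCOs against 575 and 3870 in thyroid tissue. The part of these cell types in the collagen differences was not tested.

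The basement membrane genes went in both directions. Col4a1 to Col4a4 were lower in every TFCO library than in either thyroid tissue, and Col4a5 was higher, but 0 of the 6 genes passed against thyroid tissue. Col4a1 to Col4a4 also separated the library sets without overlap, thyroid tissue 1 lying on the side of the TFCOs. The network of Col4a1 and Col4a2 chains is found in nearly all basement membranes, that of Col4a3, Col4a4 and Col4a5 chains in kidney and lung among others, and Col4a5 and Col4a6 chains combine beneath some epithelia.

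Col4a1 was at 1775 and 1396 in early and 504 and 1402 in late mThy14 and mThy16, at 3669 and 8794 in thyroid tissue and at 6268 and 15605 in lung tissue. Col4a2 was at 1292 and 723 in early and 627 and 736 in late TFCOs, at 2565 and 6369 in thyroid tissue and at 5732 and 11991 in lung tissue. TFCOs were below both tissues for both genes. The differences from thyroid tissue were -2.30 ± 0.62 (adjusted p = 0.103, limma) and -2.32 ± 0.56 (adjusted p = 0.0794), and -1.67 and -1.66 against thyroid tissue 1 alone.

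Col4a3 was at 53.4 and 139.6 in early and 295 and 114 in late TFCOs, at 335 and 794 in thyroid tissue and at 3410.0 and 4154 in lung tissue. Col4a4 was at 146 and 125.8 in early and 349.7 and 107 in late TFCOs, at 553 and 945 in thyroid tissue and at 1291 and 1568 in lung tissue. Again no TFCO library reached a tissue. The differences from thyroid tissue were -2.03 ± 0.47 (adjusted p = 0.0681) and -2.15 ± 0.47 (adjusted p = 0.0583), and -1.40 and -1.76 against thyroid tissue 1 alone.

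Col4a5 was at 2568 and 3474 in early and 4294 and 3805 in late TFCOs, at 1792 and 1254 in thyroid tissue and at 1793 and 2595 in lung tissue. Col4a6 was at 4028 and 1359.7 in early and 2849 and 1511 in late TFCOs, at 1263 and 1697 in thyroid tissue and at 366 and 345 in lung tissue. For Col4a5 all 4 TFCO libraries were above both thyroid tissues, with a difference of 1.21 ± 0.38 (adjusted p = 0.149). For Col4a6 they overlapped with thyroid tissue, with a difference of 0.59 ± 0.46 (adjusted p = 0.49), and were above both lung tissues.

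The make-up of type IV collagen RNA differed between TFCOs and tissues. Col4a5 and Col4a6 together gave 66.9%, 67.0%, 80.1% and 69.3% of type IV counts in the early libraries of mThy14 and mThy16 and then in their late libraries. They gave 30.0% and 14.9% in thyroid tissue and 11.4% and 8.11% in lung tissue. The exact 95% binomial interval of the lowest TFCO share was 65.8% to 68.0%, and that of the highest tissue share, in thyroid tissue 1, was 29.1% to 31.0%. The 2 lines averaged 70.8% ± 3.80 (SD) and the 2 thyroid tissues 22.4% ± 10.7 (SD), 48.4 percentage points apart. An exact two-sided permutation test of 2 against 2 gave p = 0.333, the smallest it can give, and the share was chosen with the levels known. With counts divided by exonic length, the share was 66.2% to 81.6% in TFCOs, 14.8% and 30.6% in thyroid tissue and 8.77% and 12.6% in lung tissue. Summed over all 6 genes, type IV counts were 7218 to 9863 in TFCOs and 10176 and 19853 in thyroid tissue.

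**Figure D4:**
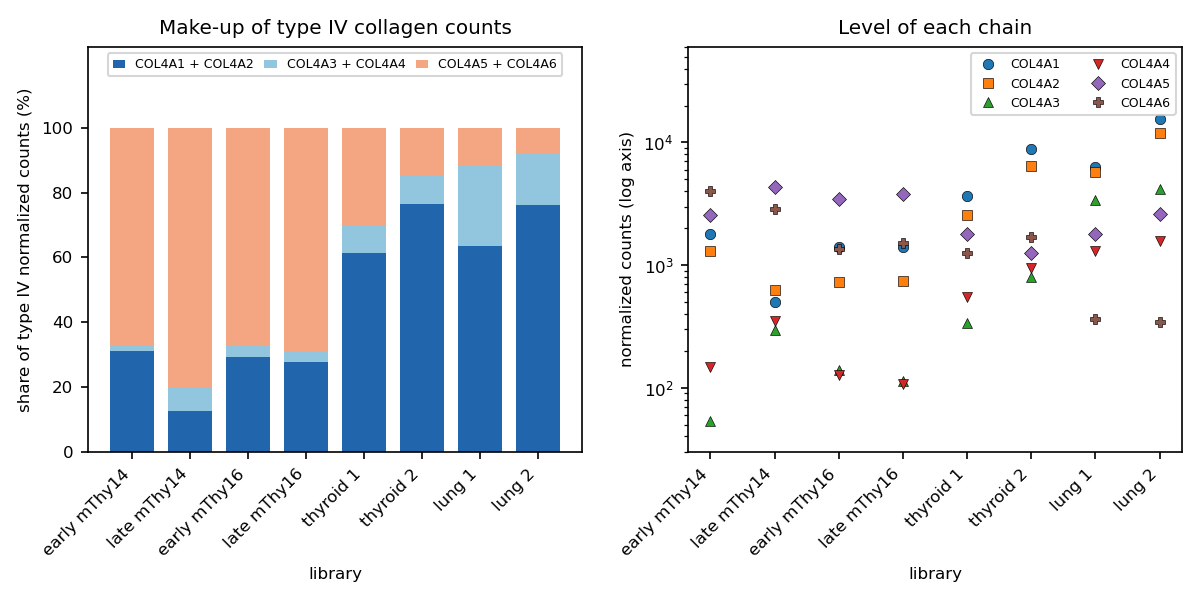
Left, the percent of type IV normalized counts from each pair of neighbouring genes in each library; right, the normalized counts (log axis) of the 6 type IV genes. The Col4a5 and Col4a6 share is at 66.9% to 80.1% in TFCOs and at 8.11% to 30.0% in tissues, and Col4a1 and Col4a2 are lower in TFCOs than in any tissue.

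Ratios of counts within a pair of neighbouring genes differed between libraries. The Col4a1 to Col4a2 ratio of counts was 0.804 to 1.93 in TFCOs, 1.43 and 1.38 in thyroid tissue and 1.09 and 1.30 in lung tissue. The Col4a3 to Col4a4 ratio was 2.64 and 2.65 in lung tissue, 0.606 and 0.840 in thyroid tissue and 0.365 to 1.11 in TFCOs, so that lung tissue was above the other 6 libraries. The Col4a5 to Col4a6 ratio was 4.90 and 7.52 in lung tissue, 1.42 and 0.739 in thyroid tissue and 0.637 to 2.55 in TFCOs. The lower bound of the exact 95% interval in lung tissue 1 was 4.42, above the upper bound of 2.72 in early mThy16. Within TFCOs, mThy16 held ratios of Col4a5 to Col4a6 of 2.55 and 2.52, and mThy14 held 0.637 at early and 1.51 at late passage.

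Type VI collagen, which forms beaded filaments around cells and between fibers, was low in TFCOs in its main chains. Col6a1 was at 9.84 and 13.9 in early and 5.20 and 15.7 in late TFCOs, at 723 and 2021 in thyroid tissue and at 3532 and 5939 in lung tissue. Col6a2 was at 4.22 and 30.7 in early and 17.7 and 11.2 in late TFCOs, at 3228 and 3215 in thyroid tissue and at 2650.3 and 5393 in lung tissue. Col6a3 was at 35.1 and 23.8 in early and 19.8 and 26.8 in late TFCOs, at 683 and 1026 in thyroid tissue and at 988 and 2719 in lung tissue. None of the 3 overlapped between TFCOs and a tissue, on 3 to 31 reads per TFCO library. Relative to thyroid tissue, Col6a1 fell by 6.73 ± 0.62 (adjusted p = 0.00471, limma), Col6a2 fell by 7.85 ± 0.50 (adjusted p = 0.00134) and Col6a3 fell by 4.97 ± 0.56 (adjusted p = 0.0078). Against thyroid tissue 1 alone, the difference of Col6a1 was -5.99 and Col6a3 no longer passed (-4.67, adjusted p = 0.0531). The other chains, Col6a5 and Col6a6, stayed between 0 and 52.3 in all libraries and did not pass.

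Of the 9 fibril-associated genes, whose chains attach to the surface of fibers, 1 was lower in TFCOs than in thyroid tissue. Col12a1 was at 81.5 and 208 in early and 108 and 158 in late TFCOs, at 746 and 697 in thyroid tissue and at 676 and 706 in lung tissue. It was below all 4 tissues and fell by 2.46 ± 0.43 (adjusted p = 0.0308), with -2.51 and an adjusted p of 0.0907 against thyroid tissue 1 alone. Col14a1, also a coat of fibers, was split by line, at 16.9 and 38.5 in early and late mThy14 and at 903 and 970.3 in early and late mThy16. It was at 565 and 828 in thyroid tissue and at 702 and 708 in lung tissue, between the lines. Col16a1 was at 81.5 and 193 in early and 518 and 195 in late TFCOs, at 328 and 171 in thyroid tissue and at 471 and 700.4 in lung tissue, with overlap.

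The type IX genes Col9a1 and Col9a3, whose chains decorate cartilage fibers, were at 10.1 or less in lung tissue and higher in the other libraries. Col9a1 was at 628 and 38.6 in early and 280.0 and 30.2 in late mThy14 and mThy16, at 148 and 168 in thyroid tissue and at 1.68 and 0 in lung tissue. Col9a3 was at 305 and 52.5 in early and 145 and 57.0 in late TFCOs, at 124 and 496 in thyroid tissue and at 5.86 and 10.1 in lung tissue. TFCOs overlapped with thyroid tissue and exceeded lung tissue for both genes. The remaining 4 fibril-associated genes, Col9a2, Col19a1, Col20a1 and Col22a1, stayed at 142 or less.

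Among short-chain network genes, Col8a1, known from vessel walls and the cornea, was at 23.9 and 33.7 in early and 36.4 and 52.5 in late TFCOs, at 382 and 283 in thyroid tissue and at 57.8 and 75.5 in lung tissue. It was lowest in TFCOs without overlap and fell by 3.19 ± 0.62 (adjusted p = 0.0422) relative to thyroid tissue, but not against thyroid tissue 1 alone (adjusted p = 0.0662). Col8a2 was at 118 and 69.3 in early and 89.5 and 74.9 in late TFCOs, at 184 and 52.6 in thyroid tissue and at 355 and 192 in lung tissue, and overlapped with thyroid tissue. Col10a1 stayed at 29.5 or less. Col7a1, whose product anchors epithelia to the tissue beneath, was at 174 and 218 in early and 124 and 262 in late TFCOs, at 455 and 70.1 in thyroid tissue and at 36.0 and 208 in lung tissue. TFCOs lay between the 2 thyroid tissues, and the difference was 0.06 ± 1.11 (adjusted p = 0.979). It turned to -1.28 against thyroid tissue 1 alone.

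The transmembrane collagens, which stay anchored in the cell membrane, did not share a direction. Col13a1, known from the neuromuscular junction, was at 74.5 and 23.8 in early and 23.9 and 8.94 in late TFCOs, at 433 and 395 in thyroid tissue and at 925 and 1126 in lung tissue. It was below all tissues and fell by 3.99 ± 0.58 (adjusted p = 0.0157), with an adjusted p of 0.069 against thyroid tissue 1 alone. The thyroid libraries held 50291 and 143675 summed counts of 7 skeletal muscle markers, TFCOs 2096 to 2689 and lung tissue 210 and 512. The TFCO sums rest on Acta1, at 1796 to 2442, with the other markers at 129 or less. Ckm was at 0.990 to 16.9 in TFCOs and at 175 and 392 in lung tissue. The part of these markers in the level of Col13a1 was not tested.

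Col25a1, whose product is known from motor nerve growth and from binding amyloid, was the member with the largest positive difference from thyroid tissue. It was at 876 and 259 in early and 1430.1 and 254 in late mThy14 and mThy16, at 47.9 and 59.9 in thyroid tissue and at 0.838 and 8.09 in lung tissue. All 4 TFCO libraries exceeded all 4 tissues. The difference from thyroid tissue was 3.30 ± 1.10 on the log2 scale (adjusted p = 0.174, limma) and did not pass, and the level was 1.75 and 2.49 higher on that scale in mThy14 than in mThy16 at early and late passage. The difference from lung tissue was 7.04 ± 1.10 (adjusted p = 0.00859). Col23a1 was highest in lung tissue, at 1539 and 2119, and was at 7.03 and 51.5 in early and 13.5 and 68.2 in late TFCOs and at 38.1 and 43.3 in thyroid tissue. Col17a1, a part of hemidesmosomes, stayed between 15.7 and 110 in all libraries.

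The multiplexins, found in or near basement membranes, differed from each other. Col15a1 was at 64.7 and 38.6 in early and 19.8 and 51.4 in late TFCOs, at 925 and 2088 in thyroid tissue and at 141 and 381 in lung tissue. It was lowest in TFCOs and fell by 5.08 ± 0.65 (adjusted p = 0.0108), with -4.50 and an adjusted p of 0.0576 against thyroid tissue 1 alone. Col18a1, whose protein carries the fragment endostatin, was at 1651 and 2054 in early and 6515 and 1607 in late mThy14 and mThy16, at 646 and 2549 in thyroid tissue and at 639.9 and 995 in lung tissue. It overlapped with thyroid tissue (difference 0.93 ± 0.67, adjusted p = 0.457, and 1.92 against thyroid tissue 1 alone) and exceeded both lung tissues. Col26a1 and Col28a1 stayed at 45.7 or less.

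The 2 organoid lines differed from each other in many collagens. Each line is 1 donor, so the difference has no replicate and is given without a test. More than 1 on the log2 scale separated the lines for 24 of 43 members at early passage and for 22 at late passage, against 31.3% and 32.8% of all genes. For 11 members the difference exceeded 1 in the same direction at both passages. Col5a1, Col9a1, Col9a3, Col11a1, Col13a1, Col25a1, Col26a1 and Col27a1 were higher in mThy14. Col6a5, Col14a1 and Col23a1 were higher in mThy16. For Col14a1, mThy14 minus mThy16 was -5.66 and -4.62 on the log2 scale at early and late passage. For Col9a1 it was 3.99 and 3.17.

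**Figure D5:**
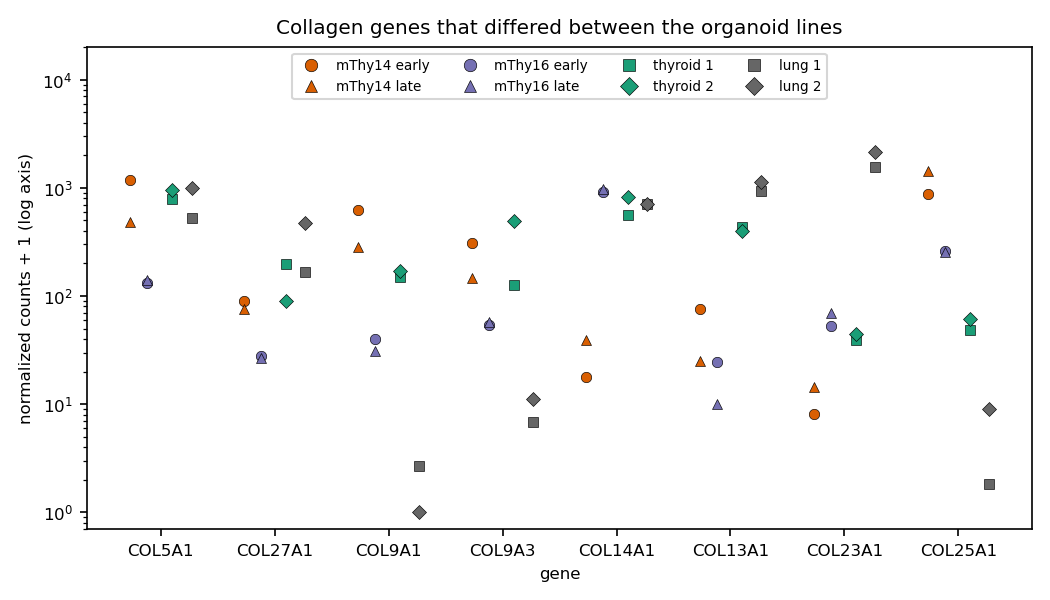
Normalized counts plus 1 (log axis) in each library for the 8 members that differed between the lines at both passages and reached 200 normalized counts. The mThy14 points lie above the mThy16 points for Col5a1, Col27a1, Col9a1, Col9a3, Col13a1 and Col25a1, and below them for Col14a1 (16.9 and 38.5 against 903 and 970.3) and Col23a1.

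No collagen gene passed between late and early TFCOs by limma. The count called was 0 of 43, with 0 at an unadjusted p under 0.05, and 0% of all genes were called, with 166 at an unadjusted p under 0.05. With the line as a block the count was 0, with 1 member at an unadjusted p under 0.05, and limma's voom also gave 0 and 0. The median difference of the members was -0.15 on the log2 scale and that of all genes was -0.02. Within mThy14, 21 members changed by more than 1 on the log2 scale between passages, against 25.5% of all genes, and within mThy16 7 members did, against 14.7%. In mThy14, Col18a1 was 1.98 and Col16a1 2.65 higher at late passage, and Col4a3 2.44 higher, while late minus early was -1.82 for Col4a1 and -1.77 for Col1a1. In mThy16 these genes changed by between -0.35 and 0.61. The difference between the lines in these changes has no replicate and was not tested.

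Against lung tissue, 23 of 43 members passed, 15 lower and 8 higher in TFCOs, while 23.4% of all genes were called, 13.5% lower and 9.83% higher. The comparison shares the TFCO libraries with that against thyroid tissue, so these comparisons are not independent. The median difference of members was -1.17 and that of all genes 0.05. The groups did not overlap for 32 members, against 67.7% of all genes, and for 20 members lower in TFCOs, against 33.3%. Of the fibrillar genes, 4 were lower, Col1a1, Col1a2, Col3a1 and Col5a2, and 2 were higher, Col2a1 and Col11a1. Col3a1 fell by 9.62 ± 0.51 (adjusted p = 0.000253, limma).

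Of the type IV genes, Col4a1 to Col4a4 were lower and Col4a6 was higher than in lung tissue. Col4a3 fell by 4.89 ± 0.47 (adjusted p = 0.00154) and Col4a6 was higher by 2.63 ± 0.46 (adjusted p = 0.0127). For Col4a1, Col4a2 and Col4a4 the differences were -3.10, -3.35 and -3.13. The differences were -8.66, -8.08 and -5.93 for Col6a1, Col6a2 and Col6a3, and Col23a1 fell by 6.15 ± 0.85 (adjusted p = 0.00573). The remaining lower members were Col12a1, Col13a1 and Col15a1, and the remaining higher members were Col9a1, Col9a3, Col19a1, Col22a1 and Col25a1. With the library set as a term, 7 of the 23 calls remained, all of them lower in TFCOs, namely Col1a1, Col1a2, Col3a1, Col5a2, Col4a3, Col6a1 and Col6a2. In that fit 174 of all genes tested were called. The counts of members and of all genes called were both lower when either lung tissue was left out.

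Between thyroid and lung tissue, 5 of 43 members passed, against 6.05% of all genes. Col9a1, Col9a3 and Col11a1 were higher in thyroid tissue, where 2.89% of all genes were called higher, and Col4a3 and Col23a1 were lower, where 3.16% were called lower. The difference was -2.86 ± 0.47 for Col4a3 (adjusted p = 0.0198), -5.44 ± 0.85 for Col23a1 (adjusted p = 0.0184) and 4.84 ± 1.01 for Col9a3 (adjusted p = 0.0391). The median difference of members was 0.26 and that of all genes 0.03. Col4a6 was 2.04 ± 0.46 higher in thyroid tissue without passing (adjusted p = 0.0507). The counts of members and of all genes called were both lower without lung tissue 1, lung tissue 2 or thyroid tissue 1. Both were higher without thyroid tissue 2. Within the set of thyroid tissue 2 and lung tissue, the differences were 6.69 for Col9a1, 5.83 for Col9a3 and 5.34 for Col11a1. They were -2.24 for Col4a3 and -5.35 for Col23a1, and 4.06 for Col5a3, which did not pass in the main fit.

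Genes of the collagen pathway outside the family were tested in the same fit, in which 3.05% of all genes were called lower and 0.599% higher in TFCOs than in thyroid tissue. Of 15 genes for modification of chains, 1 was lower and 0 were higher, and the median difference was 0.52. P4hb, a subunit of prolyl hydroxylase, was at 7754 to 21898 in TFCOs and at 10929 and 14075 in thyroid tissue. Ppib, a proline isomerase of the endoplasmic reticulum, differed by 0.52 ± 0.57 (adjusted p = 0.619). The gene that passed was Colgalt2, a galactosyltransferase for collagen, which was at 12.9 to 73.9 in TFCOs and at 430.0 and 369 in thyroid tissue and fell by 3.83 ± 0.55 (adjusted p = 0.0154). Its relative Colgalt1 was at 2102 to 3475 in TFCOs and at 1072 and 983 in thyroid tissue (difference 1.34 ± 0.35, adjusted p = 0.0966). Of 8 genes for folding and export, 1 was lower. Serpinh1, the collagen chaperone HSP47, differed by -0.68 ± 0.56 (adjusted p = 0.501), Tmem131 by 1.02 ± 0.38 (adjusted p = 0.221), and Fkbp10 fell by 2.36 ± 0.45 (adjusted p = 0.0382).

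Of 8 genes for cleavage of propeptides, 3 were lower, beside the 3.05% of all genes. The N-proteinase gene Adamts2 fell by 3.72 ± 0.44 (adjusted p = 0.0086), and Pcolce and Pcolce2, enhancers of the C-proteinase, fell by 3.67 ± 0.35 (adjusted p = 0.00509) and 3.05 ± 0.44 (adjusted p = 0.0157). The C-proteinase gene Bmp1 itself was at 651 to 1798 in TFCOs and 1225 and 671 in thyroid tissue (adjusted p = 0.563). Of 6 cross-linking genes, 1 was lower, the lysyl oxidase relative Loxl1, which fell by 4.34 ± 0.58 (adjusted p = 0.0132). Pxdn, which cross-links type IV collagen, was at 621 to 1715 in TFCOs and 499.7 and 914 in thyroid tissue (difference 0.84 ± 0.46, adjusted p = 0.357).

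Of 7 receptors, 1 was lower, the uptake receptor Mrc2, which fell by 3.98 ± 0.50 (adjusted p = 0.0104). The epithelial receptor Ddr1 was at 5075 to 7770.2 in TFCOs and at 6228 and 3462 in thyroid tissue, and Itga1 differed by 1.12 ± 0.73 (adjusted p = 0.414). Of 7 degrading enzymes, 3 were lower, and all 7 lay below 0. Mmp2, a gelatinase, fell by 6.13 ± 0.47 (adjusted p = 0.00207, limma), and the bone collagenolytic protease Ctsk fell by 5.36 ± 0.86 (adjusted p = 0.0217). Mmp14, the membrane-bound activator of Mmp2, fell by 2.79 ± 0.54 (adjusted p = 0.041), but its groups overlapped. It was at 1286 and 99.0 in early and 65.6 and 116 in late mThy14 and mThy16, and at 1589 and 952 in thyroid tissue. Against thyroid tissue 1 alone, Adamts2, Pcolce, Mrc2 and Mmp2 still passed, and Colgalt2, Fkbp10, Pcolce2, Loxl1, Mmp14 and Ctsk did not, with adjusted p from 0.0522 to 0.094. The fibroblast markers given above were lower in TFCOs as well, and their part in the levels of these genes was not tested.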

How the data were processed

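RNA of 8 mouse libraries was measured: 4 from TFCOs, 2 from thyroid tissue and 2 from lung tissue. The authors deposited their normalized counts in a single table, a signal in which each gene's reads are divided by a factor of the library, and the authors name DESeq2 for this normalization. Library preparation is a stranded polyA kit with paired-end reads in the methods and an adapted form of CEL-Seq in the labels. The submitters' processing notes name BWA 0.6.2-r126 and the builds hg38 and mm10. Values were whole multiples of one step per library, which gave the reads. No totals of other reads were used, so precision rests on counts on genes and on the spread between samples. Intervals cover counting error only.

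Tests used limma 3.58.1 (R 4.3.3) on log2 of the normalized counts after adding 1, with a trend and Benjamini-Hochberg adjustment over the 14703 genes that reached 10 in 2 or more libraries. Adding 1 understates the change of weakly expressed genes. The passages of a line were averaged for comparisons with tissue, giving 2 lines, 2 thyroid and 2 lung tissues in 1 fit. Late and early TFCOs were compared in a fit of 8 libraries. The sources used here do not say whether the numbered tissues came from separate animals, so p-values measure only the spread between these samples, which may be technical. A permutation test of 2 against 2 cannot go below 0.333.

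The collagen genes, gene lists and tests were chosen with earlier results of these data known. Named were all members, with a value in every library for fibrillar and basement membrane genes and for others reaching 200 in at least 1 library. Per pathway list, the genes called against thyroid tissue and the 2 with the highest mean were named. Colgalt1 was added beside Colgalt2 outside this rule. Marker lists are given as sums, with single markers added for follicular cells, cartilage, fibroblasts, mural cells and skeletal muscle. Early and late libraries of a line deviated together (r = 0.48 over genes), and a line is 1 donor. Tissue numbers did not pair (r = -0.07). Alternatives were the pseudocount, filters, scaling, trend, groups in the fit, library set, blocks and leaving out each library. The fits were tested on simulated data. Count models that had been planned were not run on the deposited normalized counts. The voom method of limma, run on the reads derived from them, was chosen after seeing the data. Further markers, of Schwann cells, adipocytes and epithelia, were computed as sums and are in the closing section.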

Additional observations from a re-analysis of the deposited data

Results flagged for a closer look

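In 4 cases the data put the 2 organoid lines on opposite sides of both thyroid tissues, a pattern seen in 4 of 43 collagen genes and in 509 of 14703 genes tested. Relative to the mean of thyroid tissue on the log2 scale, Col14a1 was at -4.69 in mThy14 and 0.45 in mThy16, and Col23a1 was at -1.95 and 0.53. Col9a1 was at 1.41 in mThy14 and -2.17 in mThy16, and Col26a1 was at 0.82 and -1.61. Both passages of a line lay on the same side. The difference between the lines was not tested, since each line is 1 donor. Col26a1 rests on 3 to 29 reads per TFCO library.

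Col6a2 moved in opposite directions with passage, by 1.84 on the log2 scale in mThy14 and by -1.38 in mThy16, on 3 to 31 reads. This difference was not tested. Groups of 2 libraries were too small for a search for single outlying samples.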

How the results depend on the processing

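No direction of a called collagen reversed under the alternatives run. The count of collagens called against thyroid tissue (11) was 6 with the library set as a term, and 6 to 19 when 1 library was left out, with 6 without thyroid tissue 2 and 19 without thyroid tissue 1. Against lung tissue (23) it was 7 with the set as a term and 9 to 29 when 1 library was left out, with 9 without lung tissue 1 or 2. Between thyroid and lung tissue (5) it was 3 with the set as a term, 1 with these groups alone in the fit, 2 with voom on the reads, and 0 to 12 when 1 library was left out. That count was 0 without lung tissue 1 or 2, 3 without thyroid tissue 1 and 12 without thyroid tissue 2. Counts of all genes moved too: against thyroid tissue from 536 to 178 with the set as a term, 124 with these groups alone in the fit, 232 with voom, 1322 with the 4 TFCO libraries as separate samples, and 153 to 4085 when 1 library was left out. Against lung tissue they moved from 3435 to 174, 6979, 2886, 6625 and 248 to 6986 in the same order, and between thyroid and lung tissue from 889 to 829, 277, 599, 1289 and 58 to 4311. Fewer samples enter some of these fits, and the cause was otherwise not tested. The replicate block on the tissue number gave 6 calls between thyroid and lung tissue, and the block on the organoid line gave 0 between passages, as without it. Late against early TFCOs gave 0 members in every alternative. Where 1 library of a group was left, it was assumed to vary like the other groups. Planned count models were not run. Depth limits the type I, III and VI genes in TFCOs, of which Col6a5 rests on 1 to 16 reads per library and Col1a1 on 43 to 110.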

Other observations

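Sums of markers of further cell types give the setting of the collagen values. Schwann cell markers, 6 genes, summed to 433 to 579 in TFCOs, 1486 and 2408 in thyroid tissue and 725 and 1003 in lung tissue. Adipocyte markers, 6 genes, summed to 41.6 to 82.9, 3510 and 8143, and 603 and 2558 in the same order. Epithelial markers, 5 genes, summed to 19204 to 30468, 10572 and 18822, and 7178 and 14288. Basal epithelial markers, 5 genes, summed to 1096 to 7081, 3377 and 3640, and 4181 and 4643. Follicular cell markers, 7 genes, summed to 17205 to 147501, 1542290 and 2193680, and 149 and 287.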
